A study of Homo sapiens with 12 samples.

Results

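CD46, CD55 and CD59 are the membrane-bound complement regulators that nucleated human cells carry against their own complement, and they were followed here across 12 RNA-seq libraries as 3 of the 25343 genes in the deposited count table. Their rows were taken by gene symbol, in all libraries, by cell line and guide. They were chosen by measured values: CD55 had been seen to be higher with 1 guide against WRN (sgWRN2) in SW48 and to be nearly absent from OVK18. The SW48 differences that hold the sgWRN2 libraries and the difference between the lines are therefore given as descriptions, with no test of the members.

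Complement is a cascade of plasma proteases that deposits C3b on surfaces, builds convertases there and ends with the membrane attack complex. CD46 is a transmembrane cofactor that lets factor I cleave C3b and C4b, CD55 (decay-accelerating factor) takes convertases apart, and CD59 blocks the insertion of C9 into the attack complex. CD55 and CD59 are held on the membrane by a glycosylphosphatidylinositol (GPI) anchor, whereas CD46 spans it; carcinoma cells commonly carry all of them, and they are studied as a limit on antibodies that act through complement.

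SW48 is a colorectal carcinoma line and OVK18 an ovarian carcinoma line, both known for microsatellite instability, and in all groups, controls included, the cells expressed Cas9. The cells were transduced with 1 of 3 single guide RNAs and taken 72 hours later: sgCh2-2, a control guide that cuts chromosome 2 between genes, or sgWRN2 or sgWRN3, which target the RecQ helicase gene WRN. That made 6 groups of 2 libraries, lettered A and B. The labels do not say whether the letters are separate cultures or whether the Cas9 lines are clones, so the p-values measure only the spread between these libraries. In bulk RNA, fewer cells that express a gene and less of its RNA per cell cannot be told apart.

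The promoters of the members are shown because the 3 genes differed in how far their levels changed in the same libraries. A link between sequence and level was not tested. Each run is the 250 bases before the first-listed RefSeq start on GRCh38.p14, 5′ to 3′ on the gene's strand: CD46 at chr1:207751788-207752037 (plus strand, 1 of 2 listed starts), CD55 at chr1:207321428-207321677 (plus strand, the 1 listed start) and CD59 at chr11:33736480-33736729 (minus strand, 1 of 4 listed starts). Capitals mark matches, on either strand, to the GC box motif GGGCGG, to the box motif spelled CCAAT, or to the core of the cyclic AMP response element, spelled TGACG.
CD46 promoter: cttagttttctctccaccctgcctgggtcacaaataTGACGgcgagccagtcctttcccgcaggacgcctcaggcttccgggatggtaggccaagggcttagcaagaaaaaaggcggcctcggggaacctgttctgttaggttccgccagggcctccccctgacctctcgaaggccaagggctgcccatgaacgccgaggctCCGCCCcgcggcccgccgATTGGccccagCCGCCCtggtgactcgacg
CD55 promoter: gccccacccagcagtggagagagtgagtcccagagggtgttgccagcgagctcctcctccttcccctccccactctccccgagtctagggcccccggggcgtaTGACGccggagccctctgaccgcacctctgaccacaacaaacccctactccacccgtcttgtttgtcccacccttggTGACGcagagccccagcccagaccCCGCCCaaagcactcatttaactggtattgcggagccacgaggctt
CD59 promoter: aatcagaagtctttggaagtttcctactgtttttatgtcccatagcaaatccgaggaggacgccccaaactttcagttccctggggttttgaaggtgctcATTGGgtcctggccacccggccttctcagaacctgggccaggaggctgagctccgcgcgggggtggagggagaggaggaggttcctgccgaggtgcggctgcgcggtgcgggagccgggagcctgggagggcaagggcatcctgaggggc

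Over these windows, the CD46 promoter held 2 matches to the GC box, 1 to the CCAAT motif and 1 to the response element core. The CD55 promoter held 1 match to the GC box and 2 to the response element core. The CD59 promoter held 1 match to the CCAAT motif. Searches of both strands for the TATA box motif (TATAAA), for an AP-1 site motif (TGANTCA), for the full response element (TGACGTCA, which includes its core) and for an E-box motif (CACGTG) gave 0 matches in each of the 3. Among 27305 RefSeq promoters of the same length, 42.3% held the GC box motif, 33% the CCAAT motif, 21.7% the response element core, 11.1% the TATA box motif, 6.60% the AP-1 motif, 6.49% the E-box motif and 1.77% the full response element. CpG dinucleotides numbered 19 for CD46 and 12 each for CD55 and CD59, where the median promoter had 11. These matches are descriptions of the sequence, and binding was not measured.

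Library totals ran from 15423162 to 30752291 counts in SW48 and from 17600573 to 32581625 in OVK18. WRN, the targeted gene, was at 101 ± 14.4 CPM (counts scaled to library size; mean ± SD, n = 2) in SW48 with sgCh2-2, 35.6 ± 2.19 with sgWRN2 and 49.6 ± 10.3 with sgWRN3. In OVK18 it was at 35.9 ± 5.50, 21.5 ± 0.724 and 22.6 ± 0.564, so both guides lay below the control in both lines. Against control, edgeR called WRN for sgWRN2 in SW48 alone (adjusted p = 0.00046). WRN was not called for sgWRN3 in SW48 (edgeR adjusted p = 0.438), for sgWRN2 in OVK18 (edgeR adjusted p = 0.0658) or for sgWRN3 in OVK18. Of 12 intestinal epithelial markers, EPCAM and CDH1 among them, 8 averaged at least 1 CPM in SW48. The list summed to 2615 to 3378 CPM there, with CDX1 at 0. In OVK18, 2 of the 12 averaged at least 1 CPM and the sum was 12.6 to 18.1 CPM, with CDX1, CEACAM5 and GPA33 at 0. Of 10 Mullerian and ovarian markers, 2 averaged at least 1 CPM in OVK18, with a sum of 74.7 to 82.2 CPM and WFDC2 at 0. In SW48, 5 of the 10 did, with a sum of 105 to 123 CPM. The ovarian label was thus not borne out by that list. Of 12 leukocyte, erythroid and endothelial markers, whose cells also carry the members, the sum was 10.9 to 14.7 CPM in SW48 and 4.27 to 6.58 CPM in OVK18, and CD3E and PECAM1 were among those at 0 in both lines. The 8 fibroblast markers summed to 25.8 to 44.5 CPM in SW48 and 415 to 486 CPM in OVK18.

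Levels of different genes were set side by side only per length, in the deposited FPKM values (fragments scaled to transcript length and library size). In SW48 with the control guide, CD55 was the most abundant of the 3 at 179 ± 9.79 FPKM, CD46 followed at 69.8 ± 8.27 and CD59 was lowest at 18.9 ± 1.70 (SD, n = 2). CD55 thus made up 66.8 ± 0.426% of the summed FPKM of the members, CD46 26.1 ± 1.5% and CD59 7.10 ± 1.07%. In OVK18 with the control guide, CD46 led at 80.8 ± 5.82 FPKM, CD59 was at 14.7 ± 0.852 and CD55 was at 0.0205 ± 0.00383. CD46 then made up 84.5 ± 1.70% of the sum, CD59 15.4 ± 1.69% and CD55 0.0216 ± 0.00514%. CD55 transcripts in OVK18 were thus a trace beside those of CD46. Ranked by FPKM among the 14199 genes tested, CD55 stood at 271 from the top in SW48 controls and at 13231 in OVK18 controls. CD46 stood at 875 and 754, and CD59 at 3615 and 4466.

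**Figure D1:**
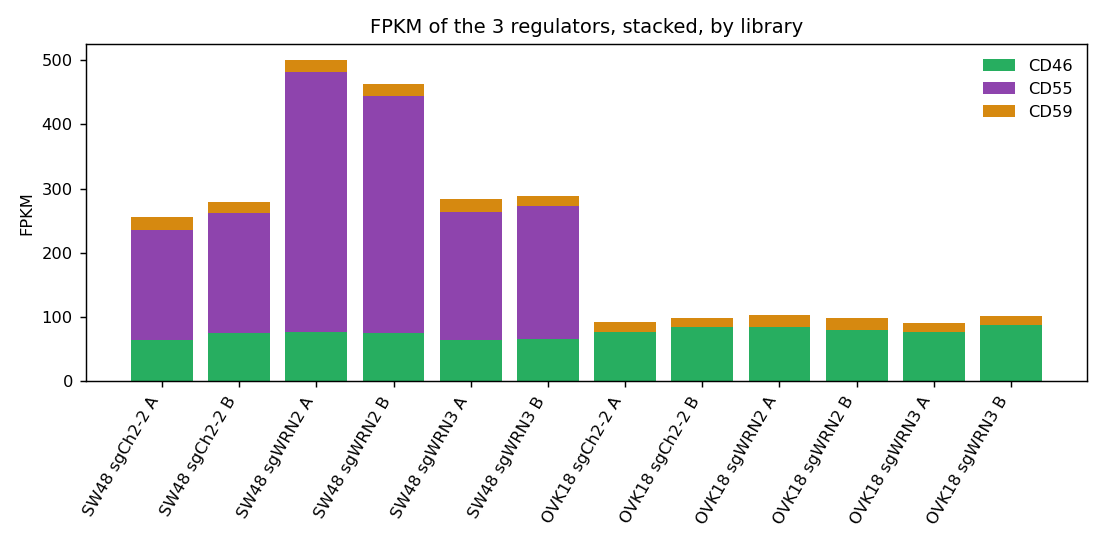
Summed FPKM of CD46 (green), CD55 (purple) and CD59 (orange) in each of the 12 libraries, named by line, guide and letter. SW48 control libraries reached 256 and 279 FPKM and the sgWRN2 libraries 463 and 499.8, with CD55 as the largest band, while OVK18 libraries stayed between 91.4 and 103 FPKM with no visible CD55 band.

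CD55 differed by guide in SW48. Scaled to library size by the trimmed mean of M values (TMM), CD55 was at 587 and 665 CPM in the control libraries A and B, at 1516 and 1362 CPM with sgWRN2, and at 678 and 791 CPM with sgWRN3. The sgWRN2 libraries lay above all 4 others, as in 12.8% of all genes, and both sgWRN3 libraries lay above both controls. The groups averaged 626 ± 55.4, 1439 ± 109 and 734 ± 79.9 CPM in that order. For sgWRN2 against control the log2 fold change was 1.20, with a standard error of 0.105 and a 95% interval of 0.97 to 1.43, or 2.30-fold. That is the contrast that chose the gene, so no test is given; 3.08% of the 14199 genes were called in it, and 21.6% had both sgWRN2 libraries above both controls. Against sgWRN3 the sgWRN2 libraries were higher by a log2 of 0.97 (0.74 to 1.20), or 1.96-fold, again with no test, in a contrast where 0.944% of genes were called and 18.8% had libraries in that order without overlap.

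The sgWRN3 guide gave CD55 a smaller difference from control in SW48. Its log2 fold change was 0.23 with a standard error of 0.104 (95% interval 0.0036 to 0.46), or 1.17-fold. It did not pass edgeR's quasi-likelihood test across all genes (Benjamini-Hochberg adjusted p = 1). In that contrast 0% of genes were called: edgeR called 0 of 14199 at an adjusted p under 0.05 and 262 at an unadjusted p under 0.05, DESeq2 called 9 and limma-voom 0. CD55 was the 1 member of the 3 whose sgWRN3 libraries both lay above both controls, as in 9.89% of all genes. It shares the SW48 control libraries with the sgWRN2 difference. In a fit without the sgWRN2 libraries that took the library letter as a replicate block, the value was again 0.23. There edgeR gave CD55 an adjusted p of 0.0294, and 151 of 14209 genes were called. That was the 1 of 26 alternatives for this difference in which CD55 passed. It left fewer residual degrees of freedom than the 6 of the main fit. Each change alone did not call CD55: leaving out the sgWRN2 libraries without the block called 0 genes. The block on all 12 libraries also called 0 genes.

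CDKN1A, a p53 target that halts the cell cycle, is set beside CD55 as a gene of known response to p53. It was at 412 and 326 CPM in the SW48 control libraries, 945 and 1008 CPM with sgWRN2, and 655 and 519 CPM with sgWRN3, so its groups came in the same order as those of CD55. In SW48, 12.8% of all genes had the sgWRN2 libraries above all 4 others, and 9.89% had both sgWRN3 libraries above both controls. For sgWRN2 it rose by a log2 of 1.40 ± 0.139 (SE; edgeR adjusted p = 0.00035). For sgWRN3 its log2 fold change was 0.67 ± 0.138 (edgeR adjusted p = 1). In OVK18, CDKN1A was at 179 and 173 CPM in controls, 253 and 295 with sgWRN2 and 187 and 172 with sgWRN3. It was not called there against control for sgWRN2 (edgeR adjusted p = 0.0628) or for sgWRN3.

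CD55 was close to the counting floor in OVK18 in every group. The control libraries held 2 and 2 counts (0.0777 and 0.0619 CPM), the sgWRN2 libraries 7 and 5 counts (0.245 and 0.274 CPM) and the sgWRN3 libraries 3 and 4 counts (0.131 and 0.155 CPM). A floor of 3 counts over a group corresponds to 0.0517, 0.0641 and 0.0616 CPM in these 3 groups. In raw counts, SW48 controls held 30627 CD55 counts and OVK18 controls 4, a ratio after library scaling of 8938 with an exact 95% interval of 3491 to 32807 for counting error only. CD55 passed the filter on low counts through the SW48 libraries alone, and a fit to the OVK18 libraries alone dropped it.

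Within OVK18, CD55 libraries ordered by guide without overlap, on very few counts. The sgWRN2 libraries lay above the other 4 of the line in 14.4% of all genes. The sgWRN2 group held 12 counts against 4 in controls, a scaled ratio of 3.72 with a counting interval of 1.13 to 15.8. The counting intervals here pool the libraries of a group and leave out the spread between them, so they are no test of the guide. In this contrast 0.796% of genes were called, and 19.2% had both sgWRN2 libraries above both controls. The sgWRN3 group held 7 counts, a ratio of 2.08 with an interval of 0.530 to 9.71. Here 0% of genes were called by edgeR (0 of 14199, against 116 at an unadjusted p under 0.05, 1 by DESeq2 and 0 by limma-voom), and 9.53% had both sgWRN3 libraries above both controls. Both OVK18 comparisons use the same control libraries. No test of CD55 within OVK18, or of its guide effect between the lines, is given, because it passed the filter only through SW48. The sgWRN3 difference in SW48 minus that in OVK18 was -0.096 for CD46 (log2, -0.53 to 0.34) and 0.034 for CD59 (-0.24 to 0.31), each at an edgeR adjusted p of 0.9999. For this difference edgeR called 0 of 14199 genes, 0%, with 152 at an unadjusted p under 0.05, 1 called by DESeq2 and 0 by limma-voom.

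**Figure D2:**
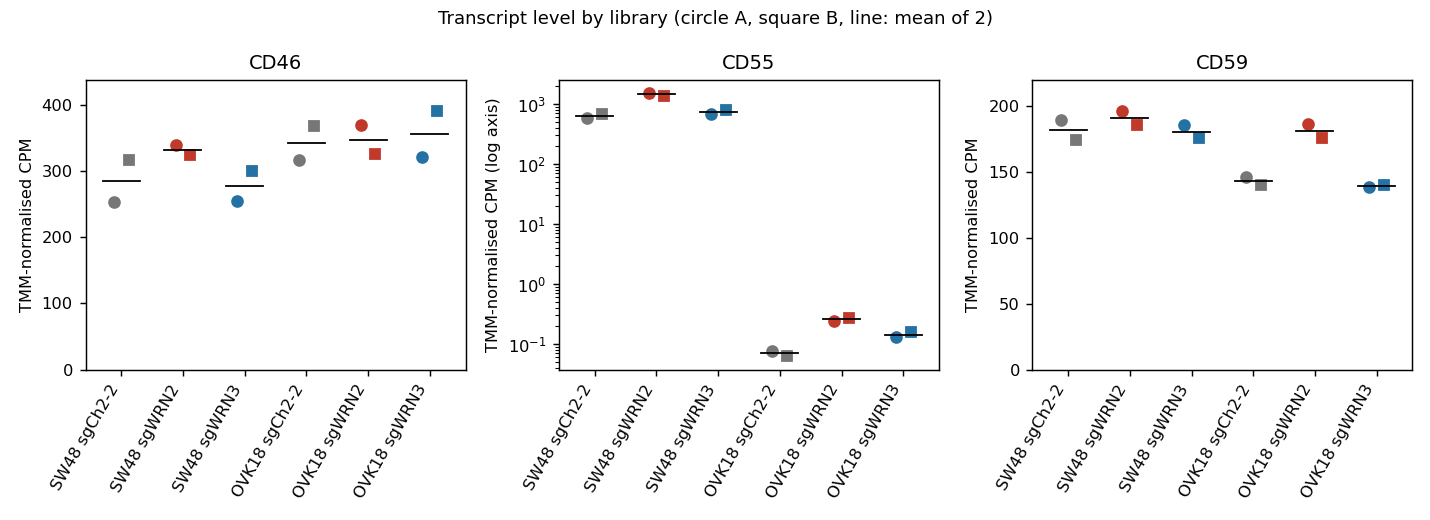
Level of each member by library in TMM-scaled CPM (circle A, square B, black line the mean of 2; grey sgCh2-2, red sgWRN2, blue sgWRN3), on a log axis for CD55 and linear axes from 0 for CD46 and CD59. CD55 spans 0.0619 to 1516 CPM, while CD46 stays between 254 and 391 CPM and CD59 between 138 and 196 CPM.

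CD59, the inhibitor of the terminal step, varied little in SW48. It was at 189.6 and 174 CPM with sgCh2-2, 196 and 186 CPM with sgWRN2, and 186 and 175 CPM with sgWRN3, and the ranges of the 3 groups overlapped. The log2 fold change was 0.071 for sgWRN2 (-0.12 to 0.27, description) and -0.010 for sgWRN3 (-0.21 to 0.19; edgeR adjusted p = 1). The sign of the sgWRN3 value turned with DESeq2's size factors, with upper-quartile scaling and in DESeq2.

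In OVK18, CD59 was at 146 and 140.4 CPM in the control libraries, 186 and 176 CPM with sgWRN2, and 138 and 139.7 CPM with sgWRN3. The sgWRN2 libraries lay above the other 4 of the line, as in 14.4% of all genes, and within the range of the SW48 libraries. Against control the log2 fold change was 0.34 with a standard error of 0.0895 (0.14 to 0.53), or 1.26-fold, and it did not pass the test (edgeR adjusted p = 0.12). Against sgWRN3 it was 0.38 ± 0.0897 (0.19 to 0.58), or 1.30-fold, with an edgeR adjusted p of 0.0764. In that comparison 0.747% of genes were called, and 18.8% had both sgWRN2 libraries above both sgWRN3 libraries. The call depended on the method: DESeq2 gave adjusted p-values of 0.00192 against control and 0.000195 against sgWRN3, while over all alternatives these ran from 0.00192 to 0.493 and from 0.000195 to 0.336. For sgWRN3 against control CD59 differed by -0.044 (-0.24 to 0.15; edgeR adjusted p = 1), with both libraries below both controls, as for 10.5% of genes.

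Between control libraries, CD59 was higher in SW48 than in OVK18 by a log2 of 0.34 (0.15 to 0.54), or 1.27-fold, and CD46 was lower by -0.26 (-0.57 to 0.044). CD55 was higher by a fitted 13.04. These are descriptions, since the lines were compared when the genes were chosen, and 68.6% of all genes were called between the lines, with 41.6% higher in both SW48 control libraries than in both of OVK18, as CD55 and CD59 were. Ordered by mean CPM, CD59 was highest in SW48 with sgWRN2, then SW48 control, OVK18 with sgWRN2 and SW48 with sgWRN3, 4 neighbours whose libraries overlapped. A gap of 37.3 CPM without overlap followed, and OVK18 control and OVK18 with sgWRN3 closed the order 4.32 CPM apart, with SDs of 4.08 and 1.03.

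CD46, the transmembrane cofactor, lay within a narrow range in both lines. In SW48 it was at 254 and 317 CPM with sgCh2-2, 340.0 and 325 CPM with sgWRN2, and 255 and 300.1 CPM with sgWRN3. In OVK18 it was at 316 and 369 CPM with sgCh2-2, 369 and 325 CPM with sgWRN2, and 321 and 391 CPM with sgWRN3. The sgWRN2 libraries of SW48 lay above the other 4 of the line, as in 12.8% of all genes (21.6% lay above both controls and 18.8% above both sgWRN3 libraries), whereas all OVK18 groups overlapped.

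The differences of CD46 were small beside their intervals. For sgWRN2 in SW48 the log2 fold change was 0.22 (-0.088 to 0.53, description), and for sgWRN3 it was -0.040 (-0.35 to 0.27; edgeR adjusted p = 1). In OVK18 it was 0.020 for sgWRN2 (-0.29 to 0.33; edgeR adjusted p = 0.987), 0.056 for sgWRN3 (-0.25 to 0.36; edgeR adjusted p = 1) and -0.036 between the guides (-0.34 to 0.27; edgeR adjusted p = 0.953). The intervals of the tested CD46 contrasts within a line reached 1.29-fold at most on the higher side and 0.786-fold on the lower. CD46 also differed between letters: with sgCh2-2 and sgWRN3, library A lay below library B by -0.32 and -0.24 log2 units in SW48 and by -0.22 and -0.28 in OVK18. With sgWRN2, library A was the higher by 0.065 in SW48 and 0.18 in OVK18. In order of mean CPM the 3 OVK18 groups led at 356 ± 49.6, 347 ± 31.0 and 343 ± 36.9 CPM, and SW48 with sgWRN2 came next at 332 ± 10.6, each overlapping its neighbour. SW48 control at 285 ± 45.0 and SW48 with sgWRN3 at 278 ± 31.9 closed the order, and they overlapped each other.

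**Figure D3:**
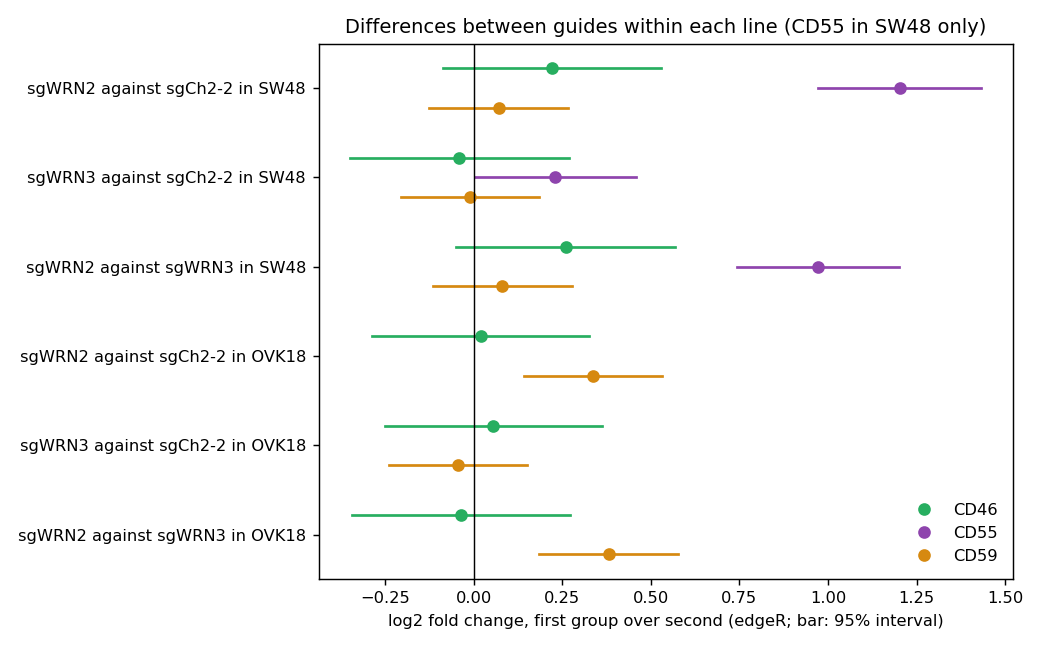
Log2 fold change of CD46 (green), CD55 (purple) and CD59 (orange) for each pair of guides within a line, with 95% intervals from the edgeR fit to all 12 libraries. CD55 is drawn for SW48 only, since its OVK18 groups held 4 to 12 counts; it lies at 1.20 and 0.97 in the contrasts with sgWRN2, and CD46 intervals all include 0.

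Set against each other per length, the members shifted in ratio. In SW48, CD55 FPKM was 2.57 ± 0.164 times that of CD46 with sgCh2-2. It was 5.06 ± 0.192 times with sgWRN2 and 3.09 ± 0.00721 times with sgWRN3. CD55 thereby made up 80.2 ± 0.55% of the summed FPKM with sgWRN2 and 70.7 ± 0.620% with sgWRN3. These ratios and shares hold the CD55 values by which the gene was chosen, so they are descriptions. The sum itself was 268 ± 16.4 FPKM in controls, 481 ± 26.1 with sgWRN2 and 286 ± 4.01 with sgWRN3. In OVK18 the sums were 95.5 ± 4.96, 101 ± 2.59 and 96.9 ± 7.78 FPKM, which overlapped. CD59 made up 18.6 ± 0.549% of the OVK18 sum with sgWRN2, against 15.4% in controls and 14.6 ± 1.43% with sgWRN3. Over the 6 libraries of a line, log2 CPM of CD46 and CD55 correlated at 0.78 in SW48, CD55 and CD59 at 0.49, and CD46 and CD59 at -0.024 in SW48 and -0.015 in OVK18. These coefficients describe libraries that share their scaling and guides.

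CD55 and CD46 lie in a cluster of complement regulator genes on chromosome 1, so their neighbours were read in the same libraries. Of the 4 annotated genes nearest to each of them, pseudogenes and noncoding RNAs among them, none had a row in the table under its symbol. The nearest protein-coding genes were taken instead, after their values had been seen. Beside CD55, C4BPB (the beta chain of C4b-binding protein) was at 0.166, 0.402 and 0.300 CPM in SW48 with sgCh2-2, sgWRN2 and sgWRN3, and at 0, 0 and 0.0218 CPM in OVK18. In SW48 that was 7 and 2, 8 and 5, and 4 and 6 counts, close to the floor. The gene had too few counts to be tested. C4BPA, CR2 and CR1, whose products bind C4b or C3 fragments, were each at or under 0.0274 CPM in every group, and CR1L beside CD46 was at 0. Also beside CD46, CD34 was at or under 0.0194 CPM, and PLXNA2, a semaphorin receptor, was at 2.04, 1.41 and 2.07 CPM in SW48 with sgCh2-2, sgWRN2 and sgWRN3 and at or under 0.0274 CPM in OVK18. Next to CD59, FBXO3, which encodes an F-box protein of ubiquitin ligases, lay between 44.4 and 52.7 CPM in all 6 groups.

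The other complement genes were mostly silent. Of 22 other regulators, 5 had enough counts to be tested and 5 were at 0 in every library. In control libraries, C1QBP, a mitochondrial protein that also binds C1q, was the highest of them at 285 ± 17.2 FPKM in SW48 and 300.2 ± 13.5 in OVK18. Clusterin (CLU), a fluid-phase inhibitor of the attack complex, was at 144 ± 28.1 CPM in SW48 and 0.434 ± 0.0449 in OVK18, on the same side as CD55. CSMD1, a membrane regulator, was on the opposite side at 0.0270 ± 0.0382 and 58.3 ± 1.02 CPM. SUSD4 was at 0.981 ± 0.470 and 0.0504 ± 0.0163 CPM. In all, 4 of the 5 differed between the lines (edgeR adjusted p from 3.12e-11 to 0.000231), 2 in each direction, where 68.6% of all genes did. No member of the list was called for any guide, and none passed an unadjusted p under 0.05 in edgeR in those contrasts either. CLU and SUSD4 in OVK18 and CSMD1 in SW48 had few counts, so they could hardly be called in those lines.

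Of 31 complement components, 30 were in the table, 6 were tested and 13 were at 0 in every library. C5, from which the attack complex starts, was at 15.5 and 18.3 CPM in SW48 controls, 10.6 and 9.50 CPM with sgWRN2, and 12.4 and 15.6 CPM with sgWRN3. It fell by 0.74 log2 units with sgWRN2 (SE 0.150, edgeR adjusted p = 0.0185), the opposite direction to CD55. That call was absent with limma-voom (adjusted p = 0.06), with the SW48 libraries fitted alone in edgeR (adjusted p = 0.0708), with the replicate block (edgeR adjusted p = 0.0542), and without SW48 sgCh2-2 library B, sgWRN2 library A or sgWRN2 library B (edgeR adjusted p = 0.108, 0.0904 and 0.17). In OVK18, C5 was at 90.2 ± 4.37 CPM in controls, 88.7 ± 6.42 with sgWRN2 and 90.8 ± 8.07 with sgWRN3. C1R was at 20.4 ± 2.56 CPM in SW48 and 10.1 ± 0.825 in OVK18 controls, CFD at 5.07 ± 0.0712 and 3.05 ± 0.632, and C8G at 0 and 5.85 ± 0.0800; like C5, each differed between the lines (edgeR adjusted p from 9.52e-09 to 0.0207), as 68.6% of all genes did.

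GPI anchor synthesis genes were read because CD55 and CD59 depend on that anchor. Of 29, 28 were tested and 1 was at 0 in every library. DPM1, which makes the mannose donor, was the highest in both lines at 57.5 ± 6.44 FPKM in SW48 and 87.3 ± 5.75 in OVK18 controls. PIGA, the catalytic subunit of the first step, was at 20.8 and 17.2 CPM in OVK18 controls, 12.1 and 10.2 CPM with sgWRN2, and 21.2 and 19.9 CPM with sgWRN3. Its sgWRN2 libraries lay below the other 4 of OVK18, as in 15.8% of all genes. PIGA was lower with sgWRN2 than with sgWRN3 by -0.87 log2 units (SE 0.164, edgeR adjusted p = 0.0337), and by -0.76 against control (SE 0.164, edgeR adjusted p = 0.0628). The first of these was no longer called with OVK18 fitted alone (edgeR adjusted p = 0.0994) or with the replicate block (edgeR adjusted p = 0.082), nor without any 1 of the 6 OVK18 libraries or the 2 SW48 sgWRN2 libraries (edgeR adjusted p from 0.0529 to 0.276). In the OVK18 sgWRN2 libraries CD59 was at its OVK18 high, and a link to PIGA was not tested.

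Across this list the median log2 fold change was -0.097 for sgWRN2 and -0.089 for sgWRN3 in SW48, and -0.13 and 0.025 in OVK18, where the median over all genes tested was 0.019, -0.00027, -0.0016 and 0. No gene of it was called by edgeR against the control guide in either line, while 3 had an unadjusted p under 0.05 with sgWRN2 in SW48 (13.1% of all genes did), 6 with sgWRN2 in OVK18 (13.9% of all genes) and 0 with sgWRN3 in either line. Between control libraries 13 of the 28 differed, against 68.6% of all genes, 5 higher in SW48 and 8 higher in OVK18. PIGC, a subunit of the first enzyme, was at 23.6 ± 0.123 and 102.6 ± 2.24 CPM in SW48 and OVK18, PIGP of the same complex at 15.1 ± 0.716 and 39.5 ± 2.14, and the mannosyltransferase PIGZ at 2.05 ± 0.313 and 5.39 ± 0.178. PIGW, which acylates the anchor's inositol, was at 52.7 ± 3.39 and 19.5 ± 0.969 CPM.

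Among 66 other genes for GPI-anchored proteins, 38 were tested, 4 were at 0 throughout, and 34 of the 38 differed between the lines, against 68.6% of all genes, 19 higher in SW48 and 15 higher in OVK18. NT5E, the ectonucleotidase CD73, was at 182 ± 21.5 and 0.217 ± 0.132 CPM in SW48 and OVK18 controls, and CD109 at 339 ± 44.4 and 0.597 ± 0.144, so both lay on the side of CD55. TFPI, an inhibitor of coagulation, was at 0.0590 ± 0.00710 and 265 ± 5.17 CPM, and BST2 (tetherin) at 0.214 ± 0.150 and 95.7 ± 13.0. The prion protein gene PRNP, the most abundant of the list in SW48 at 61.3 ± 1.97 FPKM, was also present in OVK18 at 28.2 ± 1.69. No gene of this list was called by edgeR for a guide in either line. An unadjusted p under 0.05 was held by 3 with sgWRN2 in SW48 (13.1% of all genes) and 9 with sgWRN2 in OVK18 (13.9%). With sgWRN3 it was held by 1 in each line (1.85% of all genes in SW48 and 0.817% in OVK18). Between control libraries, 11 of the 38 were higher in SW48 and 7 higher in OVK18 by over 5 log2 units (6.70% and 8.01% of all genes). Genes with few counts in a line, such as NT5E in OVK18 and TFPI in SW48, could hardly be called there. NT5E was at 250.3 ± 2.93 CPM with sgWRN2 in SW48, beside 182 ± 21.5 in controls (edgeR adjusted p = 0.0828).

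Counted over the 4 lists together, 77 genes were tested. Some of them had few counts in 1 line and could hardly be called there. With sgWRN2 in SW48 1 was called by edgeR, 4 by DESeq2 and 0 by limma-voom. Of all 14199 genes, 437, 709 and 464 were called in that order. An unadjusted edgeR p under 0.05 was held by 7 of the 77 (9.09%, against 13.1% of all genes). With sgWRN2 in OVK18 0 were called by edgeR, 2 by DESeq2 and 1 by limma-voom, where 113, 430 and 137 of all genes were. An unadjusted edgeR p under 0.05 was held by 16 of the 77 (20.8%, against 13.9% of all genes). With sgWRN3, 0 were called in either line by edgeR, DESeq2 or limma-voom, and 1 in each line had an unadjusted edgeR p under 0.05.

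**Figure D4:**
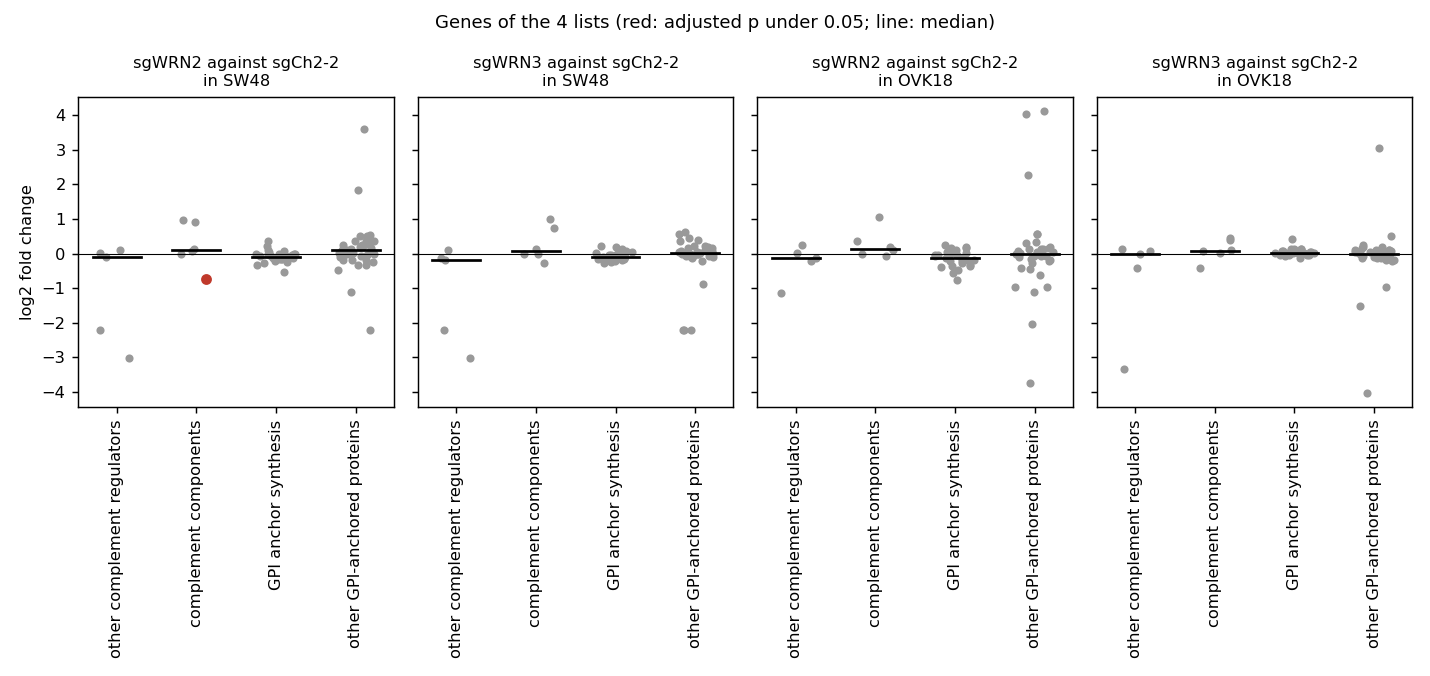
Log2 fold change against sgCh2-2 of each tested gene of 4 lists (5 other complement regulators, 6 complement components, 28 GPI anchor synthesis genes, 38 other GPI-anchored proteins), by guide and line, with a bar at the median. The 1 red point, past the edgeR threshold, is C5 with sgWRN2 in SW48; grey points beyond about 2 log2 units belong to genes with few counts in that line.

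The genes whose pattern over the 6 SW48 libraries was most like that of CD55, by Pearson correlation of log2 CPM among 10268 genes, were MXD1 (0.999), FLRT3, ARRDC4, SWT1 and SESN1 (0.993), and 356 genes passed 0.9. The libraries share guides and scaling, and 2 of the 6 are the sgWRN2 libraries in which CD55 was seen to be high. MXD1, a repressor of MYC target genes, was at 13.2 ± 0.544, 19.2 ± 0.733 and 14.1 ± 0.917 CPM with sgCh2-2, sgWRN2 and sgWRN3. SESN1, a p53-induced sestrin, had a log2 fold change of 0.61 ± 0.125 (SE) with sgWRN2, and ARRDC4, an arrestin-domain protein, one of 0.62 ± 0.133, beside 1.20 for CD55. In OVK18, where CD55 was close to the floor, ARRDC4 rose by a log2 of 1.24 with sgWRN2 (SE 0.145, edgeR adjusted p = 0.00212). MXD1 (0.0068), SWT1 (0.47) and SESN1 (0.25) were not called there by edgeR. FLRT3 was close to the floor in OVK18, at 0.0813, 0.115 and 0.158 CPM with sgCh2-2, sgWRN2 and sgWRN3. Its log2 value of 0.54 (SE 0.861) is therefore no test.

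**Figure D5:**
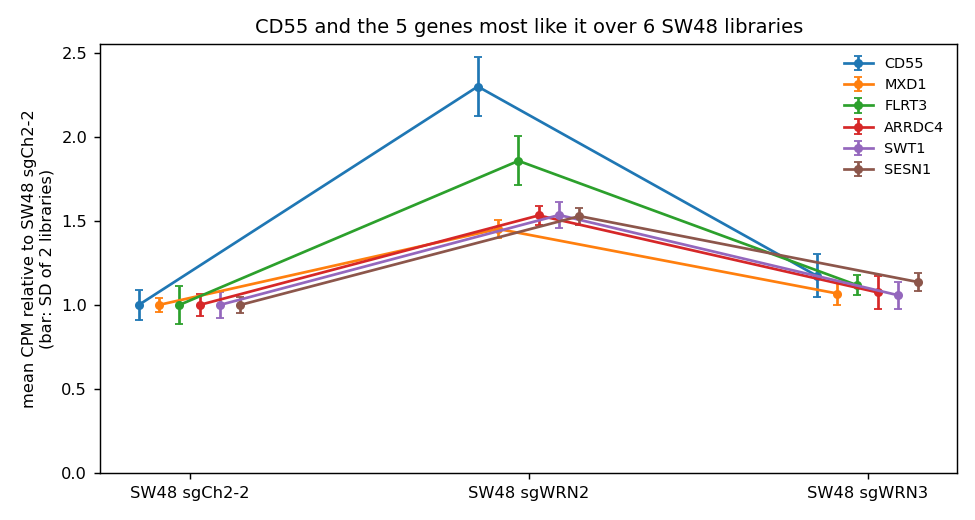
Mean CPM relative to the SW48 control group for CD55 and the 5 genes most like it over the 6 SW48 libraries, with bars for the SD of 2 libraries. The 5 genes were picked for this pattern, so their peak with sgWRN2 follows from the choice; CD55 reaches 2.30 times its control level there.

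For the other members the lists differed. CD46 was most like RABGGTB, FAM188A, PIKFYVE, ZBED5 and AMIGO2 in SW48 (0.987 to 0.994) and BTAF1, NPL, APAF1, XRN1 and NFAT5 in OVK18 (0.986 to 0.994). CD59 was most like ARHGAP17, B4GALT5, DIABLO, ZBED4 and RHOB in SW48 (0.984 to 0.988). In OVK18 it was most like F11R (0.999), PRCP, NIPAL1, OCRL and LITAF (0.992), and 547 of 10180 genes passed 0.9. F11R, a tight junction protein, was at 87.7 ± 1.51, 103 ± 3.17 and 86.5 ± 0.0635 CPM with sgCh2-2, sgWRN2 and sgWRN3, which is the order of CD59 in OVK18. Its log2 fold change with sgWRN2 was 0.24 ± 0.0911 (SE; edgeR adjusted p = 0.27).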

How the data were processed

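RNA-seq libraries of 2 Cas9-expressing lines and 3 guides (6 groups of 2) were read from the deposited gene counts, raw whole numbers made with bcl2fastq 2.18 and STAR 2.5 on hg19 per the submitters' processing notes, and from a deposited table read as FPKM. No header names its unit; Cufflinks 2.2.1 is in the same notes. Annotation and strand setting are not given in the sources used here, so antisense reads could not be told apart. The 92 spike-in features, all at 0, were left out. Per the labels, groups are line and guide.

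Counts were fitted in R 4.3.3 with edgeR 4.0.16: TMM scaling, filterByExpr (14199 genes), 1 coefficient per group, the robust quasi-likelihood option (residual degrees of freedom 6), and a threshold of 0.05 on p adjusted by Benjamini-Hochberg. The tests planned for CD55 in OVK18 are not given, since its counts there were too few. Standard errors are the log2 fold change over the square root of F. DESeq2 1.42.0 and limma 3.58.1 were alternatives, 27 in all. The steps were tested on simulated counts. Counting intervals are exact at 95%; they and the 3-count floor hold counting error alone.

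Members and lists were chosen with earlier results of these data known. Named list genes are those past the threshold (above 4, the 4 of smallest p) and the 4 highest in control libraries, of which some are reported. Likeness is over genes of at least 5 CPM in a line (prior count 2, 5 genes each). Promoters are from RefSeq, GRCh38.p14, matched for 3 of 3 members; gene coordinates on hg19 were not used here.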

Additional observations from a re-analysis of the deposited data

How the results depend on the processing

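Over 27 alternatives the 15 fitted member differences (log2) gave 372 values: 346 kept direction and side of the threshold, 20 turned sign and 6 newly passed. The 15 include the CD55 differences that hold OVK18 libraries, which are no tests because CD55 counts there were too few. Those gave 23 (sgWRN2), 25 (sgWRN3), 23 (between guides) and 24 (sgWRN3 between lines) of the 346, which therefore say nothing on stability. CD59 with sgWRN3 in SW48 (-0.010) became 0.00869 with DESeq2's size factors, 0.00539 with upper-quartile scaling and 0.00815 in DESeq2. CD59 with sgWRN2 in SW48 (0.071, not tested) became -0.00505 and -0.00518 on log2 FPKM with pseudocounts of 1 and 0.1, and the sgWRN3 effect on CD55 compared between the lines, which is no test because OVK18 held 7 and 4 counts, became 0.15 with a pseudocount of 1. CD59 in OVK18 passed for sgWRN2 against sgWRN3 at 0.390 with total counts alone (edgeR adjusted p = 0.0427), 0.397 with upper-quartile scaling (0.0478), 0.399 with a minimum mean of 5 CPM (0.0422) and 0.41 in DESeq2, where sgWRN2 against control also passed (0.36). The cause was not tested. Leaving out 1 library gave -0.19 to 0.14 for CD46 with sgWRN3 in SW48, -0.11 to 0.18 for it in OVK18, -0.069 to 0.16 for sgWRN2 in OVK18, -0.15 to 0.15 between guides there and -0.23 to 0.091 for the difference between lines. For CD59 it gave -0.063 to 0.057 with sgWRN3 in SW48, -0.020 to 0.10 with sgWRN2 in SW48 and -0.0079 to 0.11 for the difference between lines. CD55 with sgWRN2 against control in SW48 ran from 1.08 to 1.26, and with sgWRN3 from 0.12 to 0.33. CD55 between the lines was 7.46 and 10.54 on the FPKM scales and 12.82 in limma-voom.

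Called genes of the 4 lists numbered, for sgWRN2 against control in SW48 (main 1), 4 without a filter, 4 in DESeq2, 0 in limma-voom, 0 with SW48 alone, 3 and 2 on FPKM and 0 to 2 with 1 library left out. For sgWRN2 against control in OVK18 (main 0) they numbered 4 without a filter, 2 in DESeq2, 1 in limma-voom, 2 on FPKM with a pseudocount of 1 and 0 to 1 with 1 library left out. For sgWRN2 against sgWRN3 in OVK18 (main 1) they numbered 3, 3, 2, 2 and 0 to 1 in the same order, and 0 with OVK18 alone. Over all genes, calls ran from 148 to 709 for sgWRN2 in SW48, 18 to 439 for sgWRN2 in OVK18, 11 to 530 between the guides in OVK18, 3 to 334 between them in SW48, 0 to 151 for sgWRN3 in SW48, 0 to 12 for it in OVK18 and 0 to 5 for its difference between lines. The lowest calls came without SW48 sgWRN2 library B (148) or A (3) and without OVK18 sgCh2-2 library A (18) or sgWRN3 library A (11).

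The labels do not say what the letters mark. Same-letter deviations of 2 groups correlated at 0.33 to 0.41 in the 6 pairs among the sgCh2-2 and sgWRN3 groups and at 0.35 between the sgWRN2 groups, but at -0.30 to 0.022 in the 8 pairs of an sgWRN2 group with another. With the replicate block, list calls fell to 0 for sgWRN2 in SW48 and for sgWRN2 against sgWRN3 in OVK18, and gene calls were 265 for sgWRN2 in SW48, 43 between the guides there, 38 for sgWRN2 in OVK18 and 31 between the guides there. In the fit without the sgWRN2 libraries with the replicate block, CD55 with sgWRN3 in SW48 was 0.23. It had an edgeR adjusted p of 0.0294, beside 151 of 14209 genes called. In that contrast 0 genes were called without the sgWRN2 libraries and no block, and 0 with the block on all 12 libraries.

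Depth limits CD55 in OVK18, at 4 to 12 counts a group, and groups of 2 libraries limit every test.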
